A study of Mus musculus with 8 samples.

Results

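The Zfp genes examined here were the mouse genes whose symbol is Zfp followed by digits and whose brightest probe was well above background on all 8 arrays of the study. Of 21150 genes with a named probe, 372 carried such a symbol, and 303 of them met the detection rule. Of these 303 genes, 280 have digits only after Zfp and 23 have a further letter or letter and digit, such as Zfp36l1 or Zfp607a. The rule used the name and the detection flag and no difference between groups. The arrays carried RNA of CD4 single-positive thymocytes, the last T cell stage in the thymus, from 4 sorted groups with 2 biological replicates each. The group Nr4a-TKO preTreg held Treg precursors of Nr4a-TKO genotype, gated on high levels of CD25, of GITR and of Nr4a3. The group Foxp3-KO preTreg held Treg precursors of Foxp3-KO genotype, gated on high CD25 and on the signal of a Foxp3 reporter. WT Treg came from wild-type thymus and were gated on Foxp3, and WT Tconv, also wild-type, were gated on low CD25. All cells were lysed fresh. Wild-type precursors are not among the groups, so each precursor group differs from both wild-type groups in genotype and in gate at once.

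Zfp genes encode zinc finger proteins, most of them of the C2H2 type, in which a pair of cysteines and a pair of histidines hold a zinc ion and a string of such fingers reads a DNA sequence. Many C2H2 proteins of mammals also carry a KRAB domain, which binds Trim28. Trim28 brings Setdb1 and HP1 proteins that lay down and read repressive histone methylation, and the best known targets of this system are transposable elements. KRAB zinc finger genes lie in clusters that arose by duplication. Zfp36, Zfp36l1 and Zfp36l2 share the symbol but not the fold: their tandem CCCH fingers bind AU-rich elements in messenger RNA and lead to its decay, and in T cells they restrain activation.

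Signals are given on the log2 scale relative to the 75th percentile of all probes on the same array, so 0 is that percentile and 1 unit is a doubling. A gene was called when its adjusted p in limma was below 0.05. A value for 1 gene with 2 arrays against 2 could not go below 0.333 in an exact permutation test, so all p-values come from the fit across the 13494 genes tested. The 75th percentile was 7.97 to 9.20 times the local background, and 48.5% to 53.0% of spots were well above background. The median SD between replicates over the 303 Zfp genes was 0.086 in Nr4a-TKO, 0.116 in Foxp3-KO, 0.074 in WT Treg and 0.053 in WT Tconv. All 6 of 6 T cell markers were above background on every array. Foxp3 had 3.80 and 3.25 in Nr4a-TKO, 1.97 and 1.74 in Foxp3-KO, 5.0 and 4.72 in WT Treg and -3.40 and -3.79 in WT Tconv. Nr4a1 had 7.73 and 7.96 in Nr4a-TKO and 6.84 and 6.84 in WT Tconv. Which parts of these genes were deleted is not stated, and the probes check no genotype. B cell markers were not level between groups: of 7 markers, 7 and 5 were above background on the Nr4a-TKO arrays, 5 and 4 in Foxp3-KO, 4 and 2 in WT Treg and 2 and 2 in WT Tconv. Their summed linear signal was 49.0 and 13.2 in Nr4a-TKO, 13.7 and 2.33 in Foxp3-KO, 4.88 and 3.84 in WT Treg and 1.48 and 1.53 in WT Tconv. The summed signal of 10 myeloid markers was 322 and 224 in Nr4a-TKO, 232 and 167 in Foxp3-KO, 179 and 140 in WT Treg and 77.9 and 79.5 in WT Tconv. In Nr4a-TKO the brightest of these were H2-Eb1, with 7.29 and 6.70, and Ctss, with 6.41 and 5.94. Against WT Tconv 9 of the 10 rose in Nr4a-TKO, where 21.5% of all genes tested rose and 26.8% fell. Itgam fell (-0.32, adjusted p = 0.0195 in limma). Against WT Treg 2 of them rose and Itgam fell (-0.26, adjusted p = 0.0488). In Nr4a-TKO against WT Treg 19.5% of all genes tested rose and 15.9% fell. Of 13 genes induced by cell handling, Nr4a1 among them, 7 rose and 0 fell in that comparison, with a median of 0.67. The part of these genes and of other cells in the results below was not tested.

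As a family, the Zfp genes had their lowest signal in Nr4a-TKO preTreg. To set them against other genes of the same brightness, the 11228 other genes above background on all 8 arrays were divided into 10 bins of mean signal, and the medians of the bins were weighted by the number of Zfp genes in each. On each array the median deviation of the Zfp genes from their own mean over the groups, less that of the other genes, was -0.082 and -0.128 in Nr4a-TKO. It was -0.0098 and 0.052 in Foxp3-KO, 0.053 and 0.069 in WT Treg and 0.023 and -0.0026 in WT Tconv. Both Nr4a-TKO arrays lay below all 6 others, and the remaining groups lay close together, with a pooled SD between replicates of 0.0295. Nr4a-TKO had the largest mean myeloid and B cell sums of the 4 groups, though the myeloid marker Itgam was lowest there. Within Nr4a-TKO the array with the larger sums had the higher Zfp level, and within Foxp3-KO and WT Treg the array with the larger sums had the lower one. Nr4a-TKO was the group with the lowest mean for 171 of the 303 Zfp genes (56.4%), against 36.2% of the other genes above background. It was the group with the highest mean for 35 of them (11.6%), against 27.1% of the other genes. In RNA from sorted populations, a lower signal from fewer cells of a kind and from less RNA per cell cannot be told apart.

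**Figure D1:**
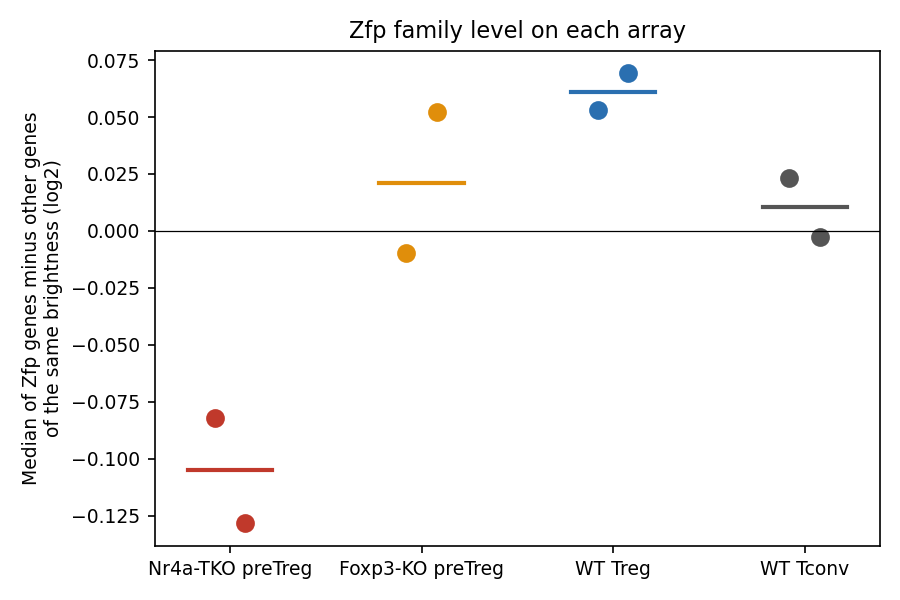
Level of the Zfp family on each array: the vertical axis is the median of the 303 Zfp genes minus that of other genes of the same brightness (log2), each point is an array and each bar the mean of a group. The 2 Nr4a-TKO points, at -0.082 and -0.128, lie below the 6 others.

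The comparison of Nr4a-TKO preTreg with WT Treg sets precursors of the Nr4a-TKO genotype against wild-type regulatory T cells. The median difference of the Zfp genes was -0.18, against -0.016 for other genes of the same brightness, a shift of -0.168. Of the 303 genes, 237 had a difference below 0 (78.2%), against 51.3% of the other genes of the same brightness. In this comparison 68 Zfp genes fell (22.4%) and 10 rose (3.3%), where 15.9% of all genes tested fell and 19.5% rose. Among other genes of the same brightness 17.1% fell and 18.4% rose. Most differences were small: 9 genes were lower by 2-fold or more and 5 were higher by as much. The shift was below 0 in all 10 brightness bins, between -0.24 and -0.081. The count of genes that fell was 20 without WT Treg replicate 2, 27 without Nr4a-TKO replicate 1, 29 without WT Treg replicate 1, 40 without Nr4a-TKO replicate 2 or either WT Tconv array, and 40 with median scaling. The count that rose was 5 without WT Treg replicate 1 and 6 without WT Treg replicate 2 or Nr4a-TKO replicate 1. The shift itself stayed between -0.190 and -0.161 whichever array of Nr4a-TKO or WT Treg was left out. Arrays of the other groups do not enter it.

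Nr4a-TKO preTreg set against Foxp3-KO preTreg compares the precursor groups of both genotypes. The median difference of the Zfp genes was -0.14, against -0.016 for others of the same brightness, a shift of -0.125 that was below 0 in all 10 bins. In Nr4a-TKO 70 Zfp genes fell (23.1%) and 20 rose (6.6%), where 15.7% of all genes tested fell and 18.0% rose. The genes that fell were 77.8% of those called, and 61.3% with median scaling (38 fell and 24 rose). The count that fell was 25 without Nr4a-TKO replicate 1, 37 without Nr4a-TKO replicate 2 or either WT Tconv array, and 39 without Foxp3-KO replicate 2. With only the arrays of these 2 groups in the fit, 3 fell and 2 rose, and under all 18 alternatives 1 call in each direction was kept, Zfp608 lower and Zfp703 higher. The count that rose was 9 without Nr4a-TKO replicate 2 or either WT Tconv array, 12 without Nr4a-TKO replicate 1 and 13 without Foxp3-KO replicate 2.

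Against WT Tconv, the Nr4a-TKO precursors had a median Zfp difference of -0.22, with -0.12 for others of the same brightness and a shift of -0.0975. The Zfp genes lay lower in 9 of 10 bins, and in the brightest bin they lay 0.079 higher. In Nr4a-TKO 108 Zfp genes fell (35.6%) and 21 rose (6.93%), where 26.8% of all genes tested fell and 21.5% rose. Of the 108 genes that fell, 36 kept the call whichever array was left out. The count that fell was 44 without WT Tconv replicate 1, 49 without WT Tconv replicate 2 and 63 without Nr4a-TKO replicate 1, and the count that rose was 8, 7 and 12 without the same arrays. Arrays of both of these groups lay in the first row of the slide, and Foxp3-KO and WT Treg arrays lay in the second. Row and group cannot be told apart in comparisons across rows. Within the first row the shift was -0.0975, and within the second row, between Foxp3-KO and WT Treg, it was -0.025. These shifts compare different groups, and the part of row in them was not tested. The comparisons share the Nr4a-TKO or the WT Tconv arrays and are not independent of each other.

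In WT Treg the Zfp genes lay slightly above other genes of the same brightness. Against WT Tconv their median difference was -0.047, with -0.095 for others of the same brightness, a shift of 0.048 that was above 0 in all 10 bins. In WT Treg 37 Zfp genes fell (12.2%) and 30 rose (9.9%), where 21.5% of all genes tested fell and 13.8% rose. The genes that fell were 55.2% of those called, and 81.8% with median scaling (72 fell and 16 rose), under which the median of all genes tested was -0.23 in place of -0.086. The shift against genes of the same brightness was 0.048 with either scaling. It could not differ, because scaling moves all genes of an array by the same amount. The count that fell was 5 without WT Tconv replicate 2, 7 without WT Tconv replicate 1, 9 without WT Treg replicate 1 and 15 without WT Treg replicate 2. The count that rose was 7, 5, 16 and 14 without the same arrays.

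In Foxp3-KO preTreg the family lay close to other genes of the same brightness. Against WT Tconv the median Zfp difference was -0.10 and that of other genes of the same brightness -0.096, and the Zfp genes lay lower in 4 of 10 bins. In Foxp3-KO 29 Zfp genes fell (9.57%) and 15 rose (4.95%), where 14.3% of all genes tested fell and 10.4% rose. With median scaling 80 fell and 7 rose, 92.0% of the called genes in place of 65.9%. In limma without either WT Tconv array 2 fell and 0 rose, with 16 and 19 higher at an unadjusted p under 0.05. Without Foxp3-KO replicate 2 the count that fell was 52, without Foxp3-KO replicate 1 it was 19, and without either WT Treg array it was 18. Against WT Treg the median Zfp difference was -0.025 and that of the others 0.0006. Here Zfp831, Zfp11, Zfp119b and Zfp688 fell (1.32% of the Zfp genes) and Zfp39 rose (0.33%), where 2.93% of all genes tested fell and 3.48% rose, and 59 Zfp genes had an unadjusted p under 0.05 in either direction. Without Foxp3-KO replicate 1 the count that rose was 11. Zfp11 had -1.68 and -1.80 in Foxp3-KO and -1.01 and -1.07 in WT Treg (-0.70, SE 0.09, adjusted p = 0.017). None of these 5 calls stood without either WT Tconv array, where 0 were called by limma in either direction and 11 higher and 30 lower genes had an unadjusted p under 0.05.

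**Figure D2:**
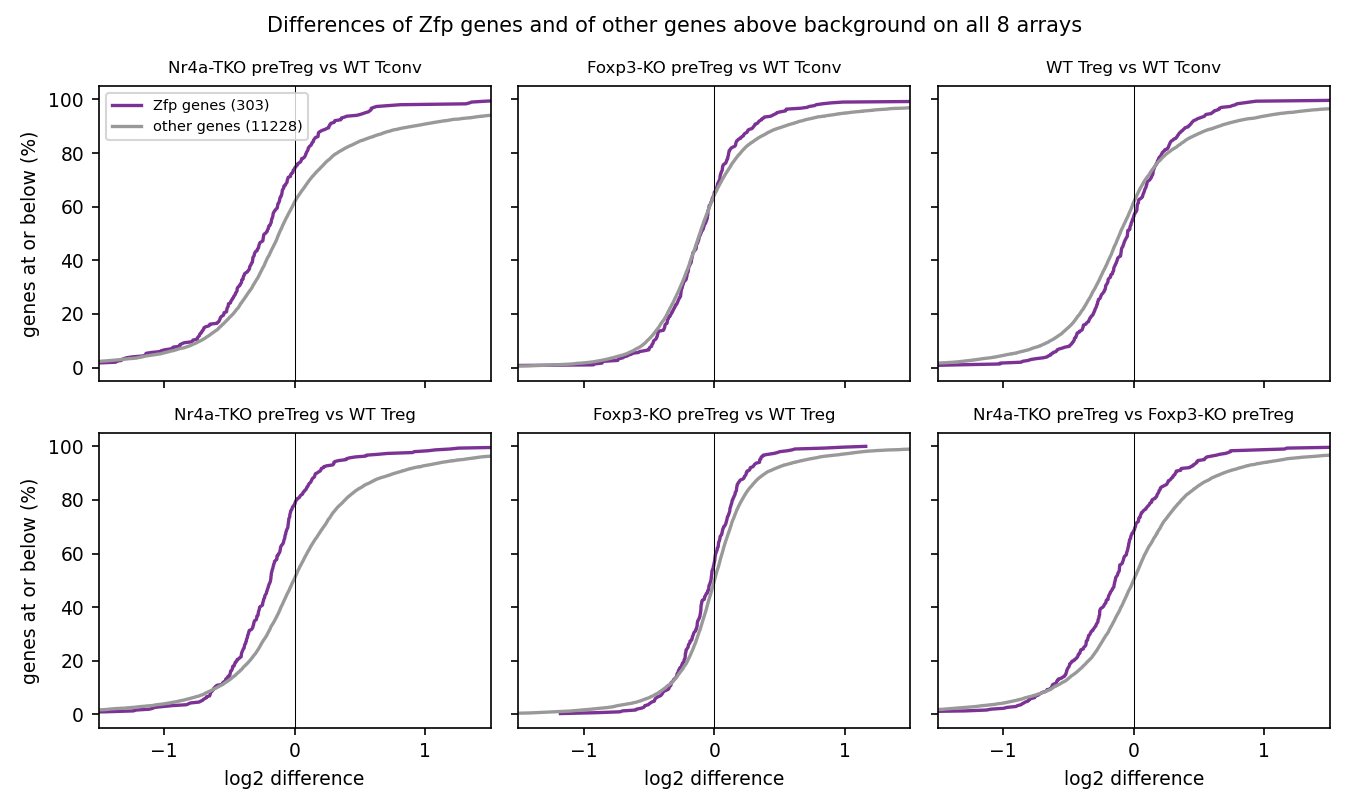
Cumulative share of genes (vertical axis, percent) at or below a log2 difference (horizontal axis) for the 303 Zfp genes and the 11228 other genes above background on all 8 arrays, in 6 comparisons. The Zfp curve lies to the left of the other curve in the 3 comparisons of Nr4a-TKO and crosses 0 at 78.2% against WT Treg.

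**Figure D3:**
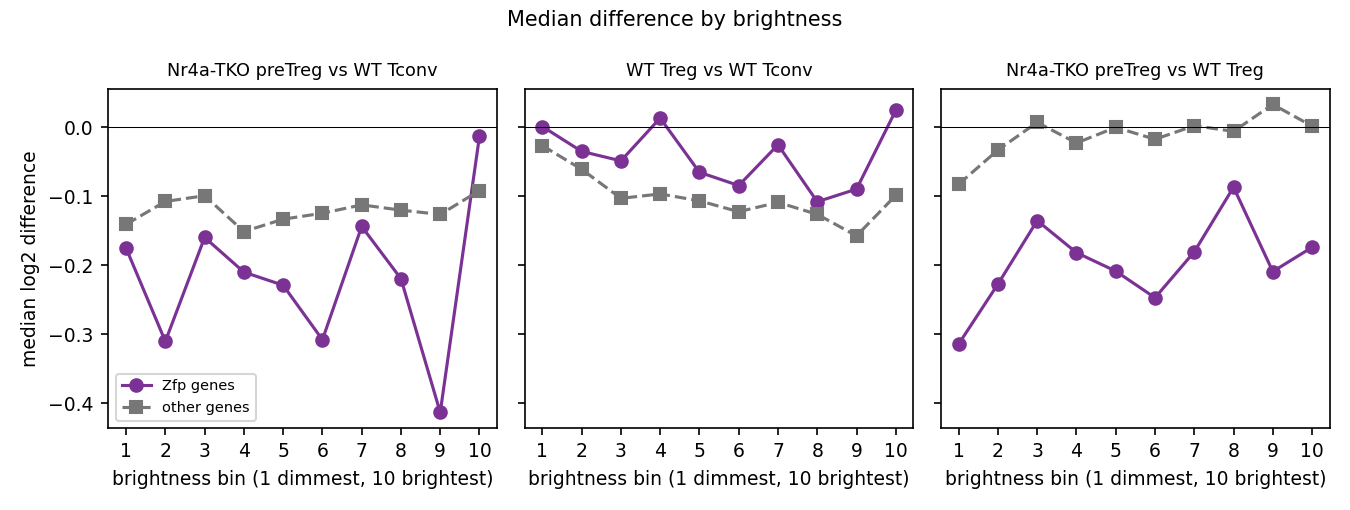
Median log2 difference (vertical axis) of Zfp genes and of other genes in 10 bins of mean signal (horizontal axis) for 3 comparisons. Against WT Treg the Zfp genes of Nr4a-TKO lie below the other genes in all 10 bins, and between WT Treg and WT Tconv they lie above them in all 10.

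The Zfp gene that fell most in Nr4a-TKO was Zfp982 against WT Treg, Zfp608 against Foxp3-KO and Zfp354c against WT Tconv. Zfp982 had -3.71 and -3.38 in Nr4a-TKO, -1.23 and -1.96 in Foxp3-KO, -1.39 and -1.20 in WT Treg and -1.77 and -2.0 in WT Tconv. Both Nr4a-TKO arrays were lowest, with no overlap with any other group. Zfp982 was 4.75-fold lower in Nr4a-TKO than in WT Treg (log2 difference -2.25, SE 0.26, adjusted p = 0.00333) and 3.15-fold lower than in WT Tconv. Zfp608, which has been described as a repressor of the Rag genes in thymocytes, had -1.58 and -2.11 in Nr4a-TKO, -0.01 and 0.61 in Foxp3-KO, 0.09 and -0.13 in WT Treg and -0.40 and -0.56 in WT Tconv. Again the Nr4a-TKO arrays stood apart below the rest. Zfp608 was 4.43-fold lower in Nr4a-TKO than in Foxp3-KO (-2.15, SE 0.26, adjusted p = 0.0046) and 3.55-fold lower than in WT Treg (-1.83, adjusted p = 0.00632), and both calls held under all 18 alternatives in which the fit was changed or an array left out.

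Zfp821 had -0.33 and -0.15 in Nr4a-TKO, 1.14 and 1.89 in Foxp3-KO, 1.27 and 1.14 in WT Treg and 1.04 and 1.12 in WT Tconv. The Nr4a-TKO arrays were again below the 6 others. Zfp821 was 2.73-fold lower in Nr4a-TKO than in WT Treg (-1.45, SE 0.24, adjusted p = 0.00967). That call was lost without Nr4a-TKO replicate 1 (-1.36, adjusted p = 0.0548) and without WT Treg replicate 1 (-1.39, adjusted p = 0.0514). Zfp354c had -2.26 and -1.77 in Nr4a-TKO, -0.72 and -0.73 in Foxp3-KO, -0.71 and -0.85 in WT Treg and -0.17 and -0.21 in WT Tconv. Its order was Nr4a-TKO lowest, Foxp3-KO and WT Treg level with each other, and WT Tconv highest. Zfp354c was 3.54-fold lower in Nr4a-TKO than in WT Tconv (-1.82, SE 0.17, adjusted p = 0.00119) and 2.35-fold lower than in WT Treg.

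Zfp281, a transcription factor that holds back differentiation genes in stem cells, had 3.30 and 3.45 in Nr4a-TKO, 4.04 and 4.33 in Foxp3-KO, 4.29 and 4.60 in WT Treg and 4.68 and 4.65 in WT Tconv. The Nr4a-TKO arrays were lowest and the WT Tconv arrays highest. Zfp281 was 2.44-fold lower in Nr4a-TKO than in WT Tconv (-1.29, SE 0.15, adjusted p = 0.00221) and 2.10-fold lower than in WT Treg (-1.07, adjusted p = 0.00553), calls that held under all 18 alternatives. Zfp219, a cofactor of Sox9 in cartilage, had -1.26 and -1.16 in Nr4a-TKO, -0.47 and 0.23 in Foxp3-KO, 0.09 and -0.08 in WT Treg and -0.87 and -0.90 in WT Tconv. It was highest in Foxp3-KO and WT Treg, and the Nr4a-TKO arrays lay just below those of WT Tconv. Zfp219 was 2.32-fold lower in Nr4a-TKO than in WT Treg (-1.21, SE 0.23, adjusted p = 0.0132). The call was lost without Nr4a-TKO replicate 1 (adjusted p = 0.0673) and without either WT Treg array (adjusted p = 0.0652 and 0.0532).

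Several further genes fell in Nr4a-TKO against WT Tconv and kept the call under all 18 alternatives. Zfp467, which steers marrow stromal cells between bone and fat, was lower by 1.52 on the log2 scale. Zfp512b (-1.37), Zfp772 (-1.30), Zfp652 (-1.24), described in human cells as a repressor, and Zfp957 (-1.14) were others. Zfp933 was also lower (-1.55), but its second probe, also above background on all 8 arrays, differed by 0.14 in the opposite direction (adjusted p = 0.338). Zfp820 was lower by 1.55, a call lost without WT Tconv replicate 1 (-1.40, adjusted p = 0.0529).

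A smaller set of Zfp genes was highest in Nr4a-TKO. Zfp703, whose human counterpart is a transcriptional corepressor, had 4.41 and 4.28 in Nr4a-TKO, 3.21 and 3.14 in Foxp3-KO, 3.27 and 3.28 in WT Treg and 3.01 and 2.98 in WT Tconv. Both Nr4a-TKO arrays stood well above every other array. Zfp703 was 2.56-fold higher in Nr4a-TKO than in WT Tconv (1.35, SE 0.08, adjusted p = 0.000383), 2.25-fold higher than in Foxp3-KO and 2.11-fold higher than in WT Treg, and these 3 calls held under all 18 alternatives. Zfp385a, a partner of p53 in the choice between arrest and death, had -1.48 and -1.10 in Nr4a-TKO, -2.75 and -3.30 in Foxp3-KO, -2.67 and -2.42 in WT Treg and -2.97 and -2.85 in WT Tconv. The Nr4a-TKO arrays were highest, with no overlap with any other group. Zfp385a was 3.07-fold higher in Nr4a-TKO than in WT Tconv (1.62, SE 0.22, adjusted p = 0.00375). Against WT Treg it was 2.39-fold higher, a call lost without Nr4a-TKO replicate 2 (1.06, adjusted p = 0.0506) and without WT Treg replicate 1 (1.13, adjusted p = 0.0605).

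Zfp367 had 1.41 and 1.17 in Nr4a-TKO, 0.76 and 0.56 in Foxp3-KO, 0.15 and 0.06 in WT Treg and 0.91 and 0.91 in WT Tconv. Its lowest arrays were those of WT Treg. Zfp367 was 2.28-fold higher in Nr4a-TKO than in WT Treg (1.19, SE 0.11, adjusted p = 0.00191) and 1.75-fold lower in WT Treg than in WT Tconv. Of 19 proliferation genes tested, 18 rose in Nr4a-TKO against WT Treg, where 19.5% of all genes tested rose. In WT Treg against WT Tconv 17 of them fell, where 21.5% of all genes tested fell. The part of the proliferation genes in the values of Zfp367 was not tested. Zfp808 (1.02) rose in Nr4a-TKO against WT Treg and Zfp760 (1.16) against Foxp3-KO, and the call of Zfp808 was lost without any array of the groups compared (adjusted p between 0.0683 and 0.0811) and that of Zfp760 without either Nr4a-TKO array or Foxp3-KO replicate 2 (between 0.0532 and 0.091). Among the Zfp genes called in any comparison Zfp768 had the largest positive difference, 2.65 higher in Nr4a-TKO than in WT Tconv, but its SE was 0.63 and leaving out any array of either group ended the call (adjusted p between 0.0674 and 0.0986). Zfp768 had -0.60 and -0.76 in Nr4a-TKO and -3.55 and -3.11 in WT Tconv, and its replicates differed by more than 1 unit in Foxp3-KO (-0.44 and -2.03) and in WT Treg (-1.75 and -3.04).

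**Figure D4:**
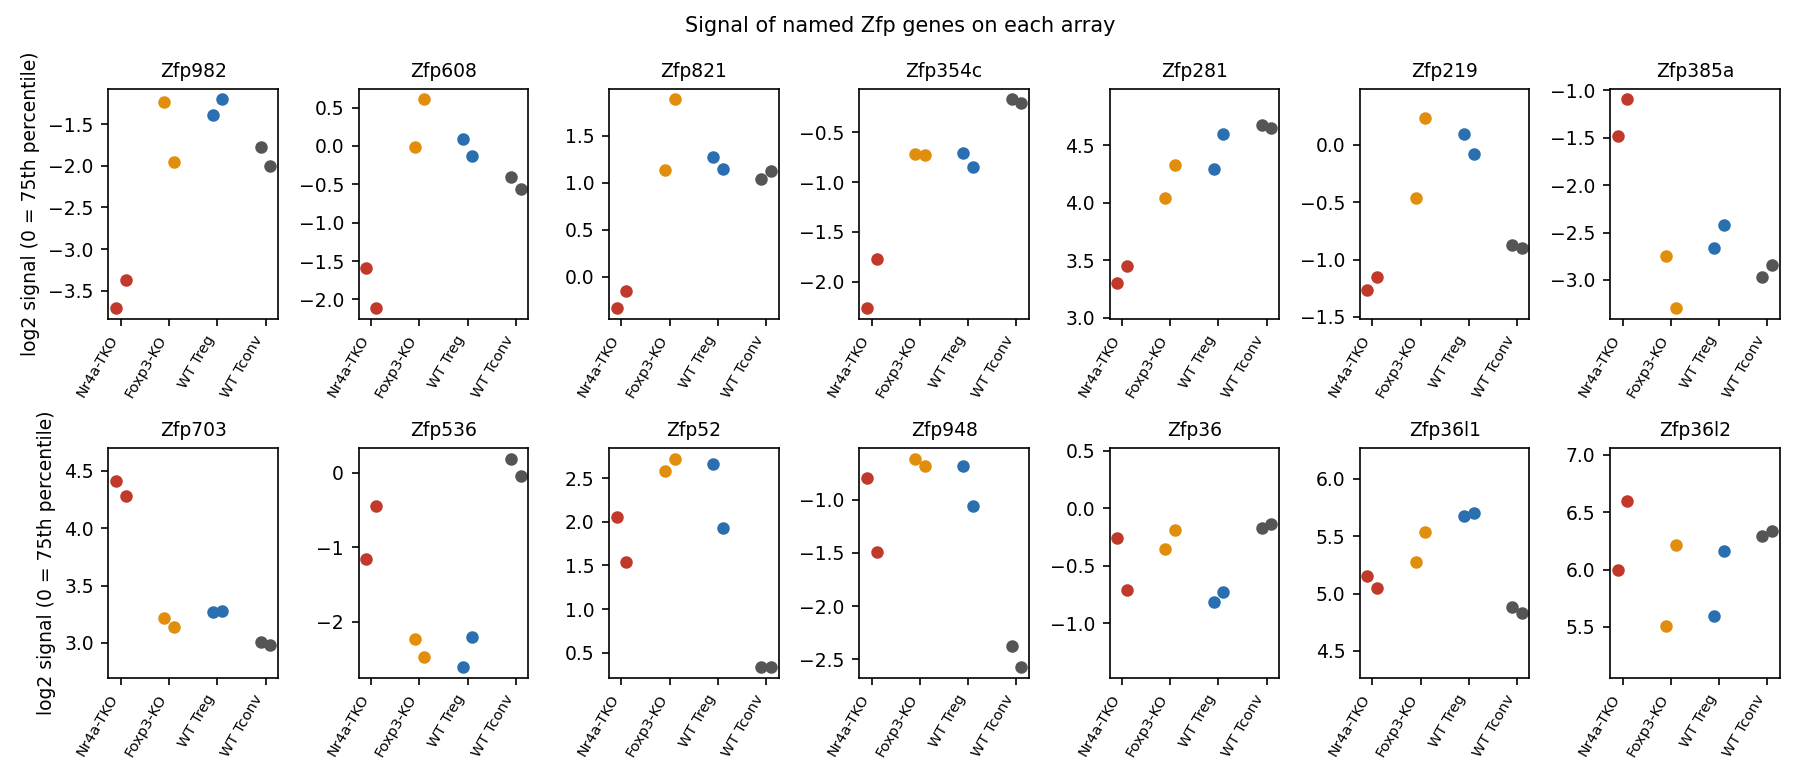
Log2 signal (vertical axis, 0 is the 75th percentile of the array) of 14 Zfp genes on each of the 8 arrays, with 1 point for an array and a separate vertical range for each gene. The Nr4a-TKO points lie below the others for Zfp982, Zfp608, Zfp821, Zfp354c, Zfp281 and Zfp219 and above them for Zfp385a and Zfp703, and the WT Tconv points lie below the others for Zfp52 and Zfp948.

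Zfp52 and Zfp948, which are neighbours on chromosome 17, were higher in all 3 groups than in WT Tconv. Zfp52 had 2.05 and 1.54 in Nr4a-TKO, 2.58 and 2.72 in Foxp3-KO, 2.66 and 1.93 in WT Treg and 0.33 and 0.34 in WT Tconv. Zfp948 had -0.79 and -1.49 in Nr4a-TKO, -0.61 and -0.68 in Foxp3-KO, -0.68 and -1.06 in WT Treg and -2.38 and -2.58 in WT Tconv. For both genes the WT Tconv arrays were lowest with no overlap, and the other groups overlapped or lay side by side. Zfp52 was 4.98-fold higher in Foxp3-KO (2.32, SE 0.28, adjusted p = 0.00657), 3.89-fold higher in WT Treg and 2.76-fold higher in Nr4a-TKO. Zfp948 was 3.55-fold higher in Foxp3-KO (1.83, SE 0.25, adjusted p = 0.0092), 3.06-fold higher in WT Treg and 2.53-fold higher in Nr4a-TKO. The Zfp52 call in WT Treg held under all 18 alternatives. In Foxp3-KO the Zfp52 call was lost without either WT Tconv array (adjusted p = 0.0554 and 0.0524), and so was that of Zfp948 (adjusted p = 0.0607 and 0.0701). In Nr4a-TKO the Zfp52 call was lost without either WT Tconv array (0.0553 and 0.0524) or Nr4a-TKO replicate 1 (0.0501), and Zfp948 was lost without WT Tconv replicate 2 in Nr4a-TKO (0.0582) and in WT Treg (0.055). No other member of their run of 7 neighbouring Zfp genes was called in any of the 6 comparisons.

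The sequence before the start of these neighbours is shown because they rose together, and that of Zfp982 and Zfp821 because both were among the 3 genes that fell most in Nr4a-TKO against WT Treg and against Foxp3-KO. Each line gives the 250 bases before the first transcription start listed for the gene in RefSeq, 5′ to 3′ on the plus strand of GRCm38.p6. Capitals mark a GC box (GGGCGG in either orientation). Zfp982 and Zfp821 each had 3 starts listed and Zfp52 and Zfp948 had 1, and the other starts were not examined. The windows are chr17:21535289-21535538 for Zfp52, chr17:21566728-21566977 for Zfp948, chr4:147442864-147443113 for Zfp982 and chr8:109705258-109705507 for Zfp821.
Zfp52: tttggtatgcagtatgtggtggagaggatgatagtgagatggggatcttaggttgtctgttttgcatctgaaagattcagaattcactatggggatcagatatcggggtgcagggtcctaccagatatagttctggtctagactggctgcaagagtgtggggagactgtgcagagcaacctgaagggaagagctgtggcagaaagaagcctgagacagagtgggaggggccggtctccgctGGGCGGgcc
Zfp948: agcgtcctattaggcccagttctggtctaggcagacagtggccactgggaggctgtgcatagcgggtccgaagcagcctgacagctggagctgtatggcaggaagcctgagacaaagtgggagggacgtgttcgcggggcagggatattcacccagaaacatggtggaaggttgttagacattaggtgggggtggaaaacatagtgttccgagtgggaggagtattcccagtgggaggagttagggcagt
Zfp982: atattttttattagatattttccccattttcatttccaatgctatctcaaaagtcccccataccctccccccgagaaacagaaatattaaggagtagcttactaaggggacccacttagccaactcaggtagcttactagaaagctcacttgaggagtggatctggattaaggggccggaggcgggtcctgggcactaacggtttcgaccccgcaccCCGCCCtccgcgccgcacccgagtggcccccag
Zfp821: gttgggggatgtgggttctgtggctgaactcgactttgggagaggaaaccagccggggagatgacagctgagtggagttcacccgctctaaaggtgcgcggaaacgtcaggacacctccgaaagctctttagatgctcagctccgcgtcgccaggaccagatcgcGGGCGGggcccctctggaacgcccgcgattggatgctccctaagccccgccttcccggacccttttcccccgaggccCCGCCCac

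The longest stretches that Zfp52 and Zfp948 had in common were 13 bases, of which agttctggtctag was one, and each of them shared at most 9 bases in a row with Zfp982 or Zfp821. The GC box lay 9 bases before the start of Zfp52, 33 before that of Zfp982 and 85 and 8 before that of Zfp821, and Zfp948 held none. Of the 303 Zfp genes, 257 had a promoter entry, and the first listed entry of each gene was used. The motifs were searched on both strands, with overlaps between motifs allowed. The Nr4a response element AAAGGTCA was in 0% of the 257 Zfp promoters (0 of 257, which says only that these letters were not in these windows), in 0.765% of 9023 promoters of other genes above background on all arrays and in 1.31% of all 27025 promoters. The forkhead motif GTAAACA was in 1.17% of Zfp promoters, 2.25% of the others and 3.09% of all. The ETS motif CCGGAAG was in 16.7%, 14.6% and 7.05%, and the TATA box TATAAA in 5.84%, 6.66% and 13.0% of the same sets. The GC box was in 42.4% of Zfp promoters, 58.3% of the others and 32.9% of all. The median GC content was 53.6% in Zfp promoters, 59.6% in the others and 52.0% in all.

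Some Zfp genes were lower in WT Treg than in WT Tconv. Zfp536, a repressor of neural differentiation, had -1.16 and -0.44 in Nr4a-TKO, -2.23 and -2.48 in Foxp3-KO, -2.62 and -2.21 in WT Treg and 0.19 and -0.04 in WT Tconv. WT Tconv was highest, Nr4a-TKO lay between, and Foxp3-KO and WT Treg overlapped at the bottom. Zfp536 was 5.60-fold lower in WT Treg than in WT Tconv (-2.48, SE 0.27, adjusted p = 0.00267) and 5.38-fold lower in Foxp3-KO, where the call was lost without WT Tconv replicate 1 (-2.31, adjusted p = 0.0515). In Nr4a-TKO it was 3.05-fold higher than in WT Treg (1.61, adjusted p = 0.0103), a call lost without WT Treg replicate 1 (1.40, adjusted p = 0.0525). Zfp629 was 3.17-fold lower in WT Treg than in WT Tconv (-1.67, SE 0.28, adjusted p = 0.00919), a call lost without WT Treg replicate 2 or either WT Tconv array (adjusted p between 0.0505 and 0.0615). Zfp652 had 0.32 and 0.41 in Nr4a-TKO, 0.81 and 1.07 in Foxp3-KO, 0.63 and 0.54 in WT Treg and 1.57 and 1.64 in WT Tconv, and was 2.03-fold lower in WT Treg than in WT Tconv (-1.02, SE 0.11, adjusted p = 0.00223) under all 18 alternatives. Zfp473, whose human counterpart works in the 3′ processing of histone messages, was 2.52-fold lower in WT Treg (-1.33, SE 0.23, adjusted p = 0.00989), and lost the call without WT Treg replicate 1 or either WT Tconv array (adjusted p between 0.0556 and 0.0633).

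In Foxp3-KO against WT Tconv the call that held under all 18 alternatives was that of Zfp607a. Zfp607a had 0.04 and 0.12 in Foxp3-KO and 0.75 and 0.80 in WT Tconv (-0.70, SE 0.07, adjusted p = 0.00369), with 0.41 and 0.36 in Nr4a-TKO and 0.32 and 0.32 in WT Treg. It was lowest in Foxp3-KO and highest in WT Tconv. Zfp945 (-1.76), Zfp467 (-0.92), Zfp783 (-0.86) and Zfp324 (-0.86) fell and Zfp120 (0.71) rose in Foxp3-KO, and each of these calls was lost without either WT Tconv array (adjusted p between 0.0642 and 0.206). Zfp120 had 1.26 and 1.0 in Nr4a-TKO, 1.06 and 1.0 in Foxp3-KO, 0.87 and 1.0 in WT Treg and 0.20 and 0.44 in WT Tconv, and its rise in Nr4a-TKO (0.81, adjusted p = 0.00589) held under all 18 alternatives. Zfp28 (0.79) rose in WT Treg against WT Tconv, a call lost without either WT Tconv array (adjusted p = 0.12 and 0.134).

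Of the 3 tandem CCCH genes Zfp36, Zfp36l1 and Zfp36l2, in WT Treg against WT Tconv 1 rose, 1 fell and 1 was not called. Zfp36l1 had 5.15 and 5.05 in Nr4a-TKO, 5.27 and 5.54 in Foxp3-KO, 5.68 and 5.70 in WT Treg and 4.88 and 4.83 in WT Tconv. Its levels did not overlap between any pair of groups, with WT Treg highest and WT Tconv lowest. Zfp36l1 was 1.79-fold higher in WT Treg than in WT Tconv (0.84, SE 0.11, adjusted p = 0.00396), which held under all 18 alternatives. Foxp3-KO exceeded WT Tconv 1.46-fold (adjusted p = 0.0204), a call lost without either WT Tconv array (0.106 and 0.121) and with median scaling (0.0676). In Nr4a-TKO it was 1.51-fold lower than in WT Treg (-0.59, adjusted p = 0.0117), a call lost without Nr4a-TKO replicate 2 (0.0526) or either WT Treg array (0.0532 and 0.0624).

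Zfp36, which encodes tristetraprolin, had -0.26 and -0.71 in Nr4a-TKO, -0.36 and -0.19 in Foxp3-KO, -0.82 and -0.73 in WT Treg and -0.17 and -0.13 in WT Tconv. Its WT Treg arrays were lowest. Zfp36 was 1.54-fold lower in WT Treg than in WT Tconv (-0.62, SE 0.16, adjusted p = 0.0321), a call lost when any array of these groups was left out (adjusted p between 0.097 and 0.138). Zfp36l2 had 6.0 and 6.60 in Nr4a-TKO, 5.51 and 6.22 in Foxp3-KO, 5.60 and 6.16 in WT Treg and 6.29 and 6.33 in WT Tconv, and its groups overlapped in most pairs with no call. The further family member Zfp36l3, looked up after its values were seen, had -1.02 and -0.69 in Nr4a-TKO and -1.38 and -1.31 in Foxp3-KO (0.49, SE 0.14, adjusted p = 0.0411), a call lost without either WT Tconv array (0.083), either WT Treg array (0.0551), either Foxp3-KO array (0.0999 and 0.0975) or Nr4a-TKO replicate 2 (0.128). Of 15 genes of the CCR4-NOT deadenylase and its partners, through which these proteins shorten poly(A) tails, 8 fell and Tob2 rose in Nr4a-TKO against WT Tconv (26.8% and 21.5% of all genes tested), with a median of -0.37 where the median of all genes tested was -0.096. Cnot7, a catalytic subunit, was 0.70 lower (adjusted p = 0.00389) and Cnot1, the scaffold, 0.39 lower (adjusted p = 0.0101). Against WT Treg 4 of the 15 fell (Cnot4, Cnot7, Tob1 and Btg1) and Tob2 rose, where 15.9% of all genes tested fell and 19.5% rose. The median was -0.22 where the median of all genes tested was 0.0085. In WT Treg against WT Tconv 2 fell and 2 rose, where 21.5% of all genes tested fell and 13.8% rose.

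Of 32 Zfp genes listed for a known role, 30 had a probe and 28 were tested. Among these, Nr4a-TKO against WT Tconv had 7 that fell and Zfp703 that rose, where 26.8% of all genes tested fell and 21.5% rose. Against WT Treg 6 of the 28 fell and 2 rose, where 15.9% of all genes tested fell and 19.5% rose. Besides Zfp281, the genes that fell against WT Tconv included Zfp593, an assembly factor of the large ribosomal subunit, which had 1.54 and 1.58 in Nr4a-TKO and 2.16 and 2.10 in WT Tconv (-0.57, SE 0.08, adjusted p = 0.00399, held under all 18 alternatives). Zfp148, a Krüppel-type factor of GC-rich promoters, had 3.51 and 3.48 in Nr4a-TKO and 4.01 and 4.09 in WT Tconv (-0.56, SE 0.11, adjusted p = 0.00951), a call lost without WT Tconv replicate 2 (adjusted p = 0.0622). The arrays of these genes did not overlap between Nr4a-TKO and WT Tconv. Zfp335, needed for T cell maturation in the thymus, had -0.21 and -0.01 in Nr4a-TKO and 0.65 and 0.54 in WT Tconv (-0.71, SE 0.15, adjusted p = 0.0142), a call lost without either WT Tconv array (0.0816 and 0.0574) or Nr4a-TKO replicate 1 (0.0736). Zfp598, whose human counterpart marks collided ribosomes, was lower by 0.31 (adjusted p = 0.0235) and lost the call without any array of either group (adjusted p between 0.0815 and 0.123).

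Zfp318, needed for IgD expression in B cells, had 1.23 and 1.01 in Nr4a-TKO, 1.86 and 2.07 in Foxp3-KO, 1.84 and 1.87 in WT Treg and 1.12 and 1.03 in WT Tconv. Foxp3-KO and WT Treg were high, and Nr4a-TKO and WT Tconv were low and overlapped. Zfp318 was 1.72-fold higher in WT Treg than in WT Tconv (0.78, SE 0.11, adjusted p = 0.00596) and, in Nr4a-TKO, 1.66-fold lower than in WT Treg (-0.73, adjusted p = 0.00775). That fall rested on its brightest probe: the other probe differed by 0.24 in the opposite direction (adjusted p = 0.615), and the mean of the probes gave -0.38 (adjusted p = 0.194). Zfp568, which silences a placental transcript of Igf2, had -0.04 and -0.12 in Nr4a-TKO, -0.47 and -0.65 in Foxp3-KO, -0.86 and -0.58 in WT Treg and -0.20 and -0.05 in WT Tconv. It was high in Nr4a-TKO and WT Tconv and low in the other groups. Zfp568 was 1.56-fold higher in Nr4a-TKO than in WT Treg (0.64, SE 0.13, adjusted p = 0.0156), a call lost without either Nr4a-TKO array (0.0773 and 0.0504) or WT Treg replicate 1 (0.0639).

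Of 21 genes that work with KRAB zinc finger proteins in silencing, all were tested. In Nr4a-TKO against WT Tconv 9 fell and 0 rose, where 26.8% of all genes tested fell and 21.5% rose, and their median was -0.31 where that of all genes tested was -0.096. Daxx, a histone H3.3 chaperone, was 0.64 lower (adjusted p = 0.0056), Chd3, a nucleosome remodeller, 1.0 lower (adjusted p = 0.00666) and Setdb1 0.43 lower (adjusted p = 0.0286). Trim28 had 3.24 and 3.62 in Nr4a-TKO, 3.56 and 3.74 in Foxp3-KO, 3.58 and 3.58 in WT Treg and 3.77 and 3.76 in WT Tconv, and was not called in any comparison. In WT Treg against WT Tconv 8 fell, where 21.5% of all genes tested fell, among them Uhrf1 (-1.27, adjusted p = 0.000463) and Dnmt1 (-1.09, adjusted p = 0.000664), which copy DNA methylation after replication. In Nr4a-TKO against WT Treg 5 of the 21 rose and 4 fell, where 19.5% of all genes tested rose and 15.9% fell. Among them Uhrf1 (1.33), Cbx5 (0.96), which encodes an HP1 protein, and Dnmt1 (0.77) rose. Chd3 (-0.97), Daxx (-0.69) and Atrx (-0.39), the partner of Daxx, fell. Nr4a-TKO against Foxp3-KO had 2 of the 21 higher and 5 lower, where 18.0% of all genes tested rose and 15.7% fell. Foxp3-KO against WT Tconv had 3 lower and 0 higher, where 14.3% of all genes tested fell and 10.4% rose.

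Neighbouring Zfp genes formed 22 runs of 3 or more members with no other protein-coding gene between them in the reference. The runs held 99 of the 303 genes. Of these 99, in Nr4a-TKO against WT Treg, 22 fell (22.2%) and 2 rose, and 46 of the 204 others fell (22.5%) and 8 rose, with medians of -0.19 and -0.18. Of all genes tested 15.9% fell and 19.5% rose there. Against WT Tconv 34.3% of the genes in runs and 36.3% of the others fell, where 26.8% of all genes tested fell. In WT Treg against WT Tconv 16 genes in runs rose and 9 fell, and 14 of the others rose and 28 fell. Of all genes tested 13.8% rose and 21.5% fell in that comparison. The run of Zfp600, Zfp992 and Zfp981 rose whole in both Foxp3-KO and WT Treg against WT Tconv, by 0.45 to 0.66, where 10.4% and 13.8% of all genes tested rose. Zfp600 had -0.20 and -0.20 in Foxp3-KO, -0.21 and -0.20 in WT Treg and -0.87 and -0.85 in WT Tconv, with -0.42 and -0.69 in Nr4a-TKO. Zfp981 rose in Nr4a-TKO too (0.58, adjusted p = 0.00296), and the mean of its probes gave 0.03 in Foxp3-KO and 0.04 in WT Treg against WT Tconv. Calls of Zfp600 and Zfp981 were lost without either WT Tconv array in both groups, with adjusted p between 0.0503 and 0.102, and that of Zfp992 without either in Foxp3-KO (0.0916 and 0.079) and without WT Tconv replicate 1 in WT Treg (0.0601). In the run of Zfp455 to Zfp429 3 of 7 genes fell in Nr4a-TKO against WT Treg, where 15.9% of all genes tested fell. In WT Treg against WT Tconv 3 of the 7 rose, where 13.8% of all genes tested rose. Members of such runs are often near copies, as are Zfp729a and Zfp729b or Zfp874a and Zfp874b, and a probe may read more than 1 of them, so their values are uncertain gene by gene.

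**Figure D5:**
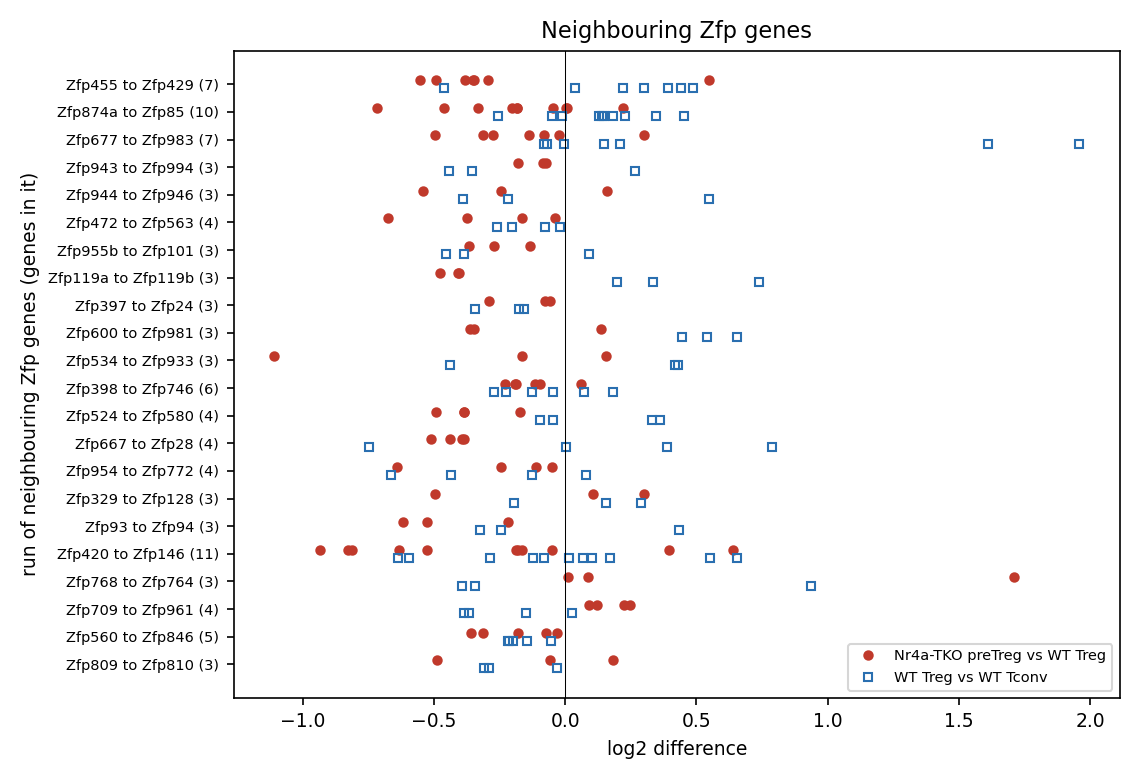
Log2 differences (horizontal axis) of the 99 Zfp genes in 22 runs of neighbours (vertical axis, named by the first and last gene, with the number of genes), for Nr4a-TKO against WT Treg (filled circles) and WT Treg against WT Tconv (open squares). The open squares of Zfp52 and Zfp948 lie at 1.96 and 1.61, and the filled circle of Zfp768 at 1.71.

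Other zinc finger families were set against genes of their own brightness in the same way. In Nr4a-TKO against WT Treg the shift was -0.16 for 35 Zbtb genes, whose BTB domain recruits corepressors, -0.22 for 16 Zscan and Zkscan genes, which carry a SCAN domain, and -0.079 for 17 Zc3h genes, which have CCCH fingers. Of these, 8 Zbtb genes fell and 3 rose, 7 Zscan and Zkscan genes fell and 0 rose, and 3 Zc3h genes fell and 0 rose. Of all genes tested 15.9% fell and 19.5% rose. In Nr4a-TKO against WT Tconv the shifts were -0.097, -0.19 and 0.018 for the same families in the same order. Against Foxp3-KO they were -0.15, -0.047 and 0.014. In WT Treg against WT Tconv the shifts were 0.044, 0.17 and 0.04 for the same families, beside 0.048 for the Zfp genes.

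The 69 Zfp genes that missed the rule were mostly undetected: 37 were above background on none of the 8 arrays and 9 on 7 of them, and 27 of the 69 passed the filter for the test. The brightest probes among the 303 genes were those of Zfp628, Zfp408, Zfp658, Zfp663 and Zfp622, with mean signals between 9.83 and 6.15. Zfp622 is an assembly factor of the large ribosomal subunit. The dimmest probes inside the rule were those of Zfp13, Zfp60 and Zfp759, with mean signals of -3.52, -3.19 and -3.11. The brightest that missed it on 1 array were those of Zfp612, Zfp974 and Zfp30, with -2.03, -2.16 and -2.54. Zfp974 had -4.00 and -4.45 in Nr4a-TKO, where 1 array was above background, and -1.44 and -1.01 in Foxp3-KO, -1.55 and -1.77 in WT Treg and -1.49 and -1.55 in WT Tconv. The rule thus left out a gene that was dim in 1 group. Genes above background in at least 1 group can enter through a group in which they are high. With these added, the shift of Nr4a-TKO against WT Treg was -0.204, from which no conclusion is drawn.

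A second probe above background on all 8 arrays was present for 96 of the 303 genes, 119 such probes in all. In Nr4a-TKO against WT Treg 35 of these probes belonged to a gene that was called, and 3 of the 35 had the opposite sign, for Zfp318, Zfp457 and Zfp975. Against WT Tconv 6 of 51 did, for Zfp850, Zfp933, Zfp994 and 3 probes of Zfp975, 1 of which was itself called in the opposite direction (0.38, adjusted p = 0.0088). In Foxp3-KO against WT Tconv 6 of 28 did, for Zfp143, Zfp994, Zfp995 and 3 probes of Zfp944. Among these 6, 2 were called in the opposite direction, a probe of Zfp944 (2.21 against -0.26 for the brightest) and that of Zfp995 (-0.60 against 0.31). In Nr4a-TKO against Foxp3-KO 3 of 26 had the opposite sign, for Zfp707, Zfp933 and Zfp949. In WT Treg against WT Tconv 1 of 27 did, for Zfp995.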

How the data were processed

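The authors deposited 1 scanner file per array, made with Agilent Feature Extraction (version 10.7.1.1, per the file headers). From these the spot intensity in Cy3 was taken as processed by that program, which subtracts background but does not normalize between arrays. Per the labels, 10 ng of RNA was labelled per sample. A deposited table of linear intensity matched the scanner values after scaling and served as an alternative.

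Control and outlier spots were left out (62976 spots, 3671 controls, 0 saturated). The log2 intensity was averaged per probe, and the 75th percentile of each array was subtracted. Symbols came from RefSeq accessions through the reference table (28020 probes with a symbol, 27661 without). The brightest probe per gene was used. A gene was tested if it was well above background on both arrays of at least 1 group. One limma model (limma 3.58.1, R 4.3.3) held all 4 groups, with 4 residual and 1.59 prior degrees of freedom. All 6 comparisons were adjusted by Benjamini-Hochberg over the 13494 genes. The fit was tested on simulated data.

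The Zfp genes, lists and tests were chosen with earlier results of these data known, and the lists are no independent evidence. Named genes were the 5 highest and 5 lowest called differences in each comparison, the tandem CCCH genes, genes of known role, those next to the threshold, runs of neighbours, probes of opposite sign and up to 4 KRAB partners per comparison. Zfp512b, Zfp607a, Zfp957, Zfp367 in WT Treg, Zfp120 in Nr4a-TKO and the CCR4-NOT genes were named after their values were seen. Precision is limited by having 2 arrays in a group.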

Additional observations from a re-analysis of the deposited data

How the results depend on the processing

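The 6 shifts of the Zfp family against genes of the same brightness kept their sign under all alternatives but that of Foxp3-KO against WT Tconv, which lay near 0. Some alternatives could not move a shift: median scaling, the replicate block, and leaving out an array of a group not compared. With each of the 8 arrays left out in turn the shift ranged from -0.121 to -0.0975 in Nr4a-TKO against WT Tconv, from -0.0092 to 0.0201 in Foxp3-KO against WT Tconv, from 0.0357 to 0.069 in WT Treg against WT Tconv, from -0.190 to -0.161 in Nr4a-TKO against WT Treg, from -0.0491 to -0.0204 in Foxp3-KO against WT Treg and from -0.141 to -0.112 in Nr4a-TKO against Foxp3-KO. With genes above background in at least 1 group added, the shift was -0.141, -0.0407, -0.204 and -0.163 in Nr4a-TKO and Foxp3-KO against WT Tconv and in Nr4a-TKO against WT Treg and Foxp3-KO. Such genes can enter through a group in which they are high, so no conclusion is drawn from these values. Counts moved more. With an array left out, 7 to 25 Zfp genes were higher and 44 to 122 lower in Nr4a-TKO against WT Tconv, 0 to 16 and 2 to 52 in Foxp3-KO against WT Tconv, 5 to 33 and 5 to 53 in WT Treg against WT Tconv, 5 to 13 and 20 to 92 in Nr4a-TKO against WT Treg, 0 to 11 and 0 to 6 in Foxp3-KO against WT Treg, and 9 to 19 and 25 to 85 in Nr4a-TKO against Foxp3-KO. In Foxp3-KO against WT Tconv (15 higher, 29 lower) median scaling gave 7 and 80, no filter on dim probes 9 and 15, only the 2 groups compared 5 and 10, and genes above background on all 8 arrays 46 lower. In WT Treg against WT Tconv (30 and 37) median scaling gave 16 and 72, no filter 18 and 18, and only 2 groups 60 lower. In Nr4a-TKO against WT Treg (68 lower) median scaling gave 40 and no filter 42. In Nr4a-TKO against Foxp3-KO (20 and 70) only 2 groups gave 2 and 3, and median scaling 38 lower. In Foxp3-KO against WT Treg (1 and 4) quantile normalization gave 2 and 8, median scaling 0 and 2, no filter 0 and 1, all 8 arrays 3 and 12, an intensity trend 2 and 12, only 2 groups 0 and 0, normexp 9 lower, the mean of probes 0 higher and genes above background in at least 1 group 2 higher. In limma these counts of 0 higher came with 9, 11, 8 and 13 at an unadjusted p under 0.05 for median scaling, no filter, only 2 groups and the mean of probes, and the 0 lower with 19. Only 2 groups, or an array left out, leaves fewer samples in the fit, and no filter tests more genes. An array left out of a group not compared moves no difference, only the shared estimate of spread and its degrees of freedom. The cause of the other changes was not tested. Same-numbered arrays of Nr4a-TKO, Foxp3-KO and WT Treg deviated together (r = 0.15 to 0.26) but not with WT Tconv (r = -0.029 to -0.011), so a shared factor among those 3 groups was not tested, no pairing was assumed, and the replicate block gave 2 higher and 1 lower in Foxp3-KO against WT Treg and 11 and 62 in Nr4a-TKO against WT Treg. Of 4140 values of named genes under alternatives, 3755 kept direction and call, 320 lost the call, 65 gained it and 0 changed sign. With 2 arrays per group, signal near background and 1.59 prior degrees of freedom limit single-gene calls.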
